A study of Mus musculus with 2 samples.

Results

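The CD3 chains are the invariant signalling subunits of the T-cell receptor (TCR), and this section describes the Runx1 peaks around their 4 genes, Cd3e, Cd3d, Cd3g and Cd247, in CD4+CD8+ double-positive (DP) thymocytes of C57BL/6 mice. A peak was taken if its centre lay between 50 kb upstream and 50 kb downstream of the body of one of these genes in the GENCODE annotation of NCBIM37 (mm9), which gave 7 of all 3531 peaks of the Runx1 library. DP cells were sorted from thymus, and chromatin of 10000000 cells was immunoprecipitated with 10 μg of a Runx1 antibody and sequenced on the SOLiD platform after 15 cycles of PCR. The input control was made from the same kind of cells, without antibody. There was 1 library per condition, so no spread between replicates exists and no test was run. The catalogue number of the Runx1 antibody in the labels of the samples is not the one in the paper. A peak list does not measure expression, so the DP identity of the cells could not be checked here against marker genes.

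CD3ε pairs with CD3γ or with CD3δ, and CD3ζ, the product of Cd247, forms a homodimer. These dimers bring the antigen-binding TCR chains to the cell surface and carry the immunoreceptor tyrosine-based activation motifs (ITAMs) that Lck phosphorylates and ZAP-70 binds. Runx1 is a DNA-binding factor of the RUNX family that works with the partner Cbfβ and recognises short motifs such as TGTGGT and TGCGGT. It is required for the development of thymocytes and acts at several T-cell genes as an activator or a repressor.

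All 4 genes had Runx1 peaks close to or inside their bodies. Of the 7 peaks, 4 lay in the region of Cd3g, Cd3d and Cd3e on chromosome 9 and 3 in Cd247 on chromosome 1. Those on chromosome 9 were at the start of Cd3g, in the last exon of Cd3d, near the start of Cd3e and at the start of the neighbouring gene Ube4a. All of those in Cd247 lay in its first intron. The sequences on which the description turns are shown first, namely the RUNX motifs at Cd3d, Cd3e and Cd247, the intronic peaks that hold them, and the DNA upstream of Cd3g, which is covered in part by a peak but holds no such motif. They are written 5′ to 3′ in mm9. In the first 4, capitals mark TGTGGT or TGCGGT, or ACCACA, which is TGTGGT read on the other strand. In the last, capitals mark the bases inside the peak.
Cd3d, last exon, both motifs of the peak, plus strand, chr9:44794759-44794783: ACCACAgcccaaagcaggcTGTGGT
Cd3e, second exon, motif of the peak, minus strand, chr9:44817470-44817481: ggaTGCGGTgga
Cd247, first intron, peak with a score of 26, plus strand, chr1:167775597-167775783: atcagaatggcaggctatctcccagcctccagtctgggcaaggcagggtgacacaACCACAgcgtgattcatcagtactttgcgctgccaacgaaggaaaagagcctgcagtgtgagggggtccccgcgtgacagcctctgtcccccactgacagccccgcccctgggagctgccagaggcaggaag
Cd247, first intron, peak with a score of 16, plus strand, chr1:167746513-167746699: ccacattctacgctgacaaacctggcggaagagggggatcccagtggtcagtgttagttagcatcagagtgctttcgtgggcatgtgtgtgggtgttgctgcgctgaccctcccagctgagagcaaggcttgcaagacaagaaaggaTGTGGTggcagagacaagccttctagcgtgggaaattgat
Cd3g, 250 bases before the transcription start site, minus strand, chr9:44788515-44788764: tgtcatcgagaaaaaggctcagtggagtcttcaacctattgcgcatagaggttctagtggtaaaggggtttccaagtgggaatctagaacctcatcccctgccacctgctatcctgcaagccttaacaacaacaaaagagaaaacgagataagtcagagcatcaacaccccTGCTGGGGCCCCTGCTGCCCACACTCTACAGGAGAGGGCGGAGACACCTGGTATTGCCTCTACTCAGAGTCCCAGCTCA

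Cd3g, Cd3d and Cd3e lie side by side. Cd3g (ENSMUSG00000002033.7, minus strand) extends from 44777655 to 44788514, Cd3d (ENSMUSG00000032094.7, plus strand) from 44789876 to 44795135 and Cd3e (ENSMUSG00000032093.6, minus strand) from 44806826 to 44817673. The start sites of Cd3g and Cd3d are 1362 bp apart and point away from each other, while Cd3d and Cd3e converge with 11690 bp between their ends. Each of the 4 peaks of the region lay within 50 kb of all of these bodies, so the 3 genes share the same 4 peaks.

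At Cd3g, which encodes CD3γ, the peak (44788407 to 44788593) scored 18 and was centred 14 bp downstream of the transcription start site (TSS), in the 5′ untranslated part of the first of 7 exons. The same peak was the nearest to the TSS of Cd3d, with its centre 1376 bp upstream. With its edges as deposited, it therefore covered the start of Cd3g and reached into the interval between both starts, but not as far as the start of Cd3d. Neither TGTGGT nor TGCGGT was found in it, and the nearest TGTGGT lay 178 bp from its centre. It held the E-box letters CAGCTG 12 bp and CAGGTG 46 bp from the centre. Of all Runx1 peaks, 20.0% held CAGCTG and 25.1% held CAGGTG, and these letters were added after the peak positions had been seen. E-boxes are bound by the E proteins, which act in early T cells.

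The highest score of the region was in Cd3d, the gene of CD3δ. This peak (44794603 to 44794789) scored 26 and was centred 4820 bp downstream of the TSS and 439 bp before the end of the gene, in the 3′ untranslated part of the last of 5 exons. As shown above, it held TGTGGT on both strands, 65 and 84 bp from its centre. At least 2 copies of TGTGGT were found in 4.39% of all Runx1 peaks. In the 11690 bp between the ends of Cd3d and Cd3e there was no peak.

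Cd3e encodes CD3ε, the chain shared by both CD3 heterodimers. Its peak (44817308 to 44817494) scored 21 and was centred 272 bp downstream of the TSS, in intron 2 and 30 bp from the second exon, which the peak overlapped. It held no TGTGGT but held TGCGGT on the strand of the gene, 74 bp from its centre (44817473 to 44817478). This match overlaps the start codon of Cd3e (44817477 to 44817479).

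The remaining peak of the region (44773593 to 44773779) had a score of 16 and lay 3969 bp beyond the 3′ end of Cd3g. However, its centre was 3 bp upstream of the TSS of Ube4a, a ubiquitin ligase gene on the same strand as Cd3g, and the peak was therefore counted with the CD3 genes by distance alone. It held no RUNX motif of either form and held the ETS letters GGAAG at 2 positions. No peak lay within 5 kb of the start of the other neighbours in the region, Atp5l (a subunit of ATP synthase), Mpzl2 and Mpzl3 (both membrane adhesion proteins). For these the nearest peak centre was 15637, 33107 and 45868 bp from the TSS, respectively.

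**Figure D1:**
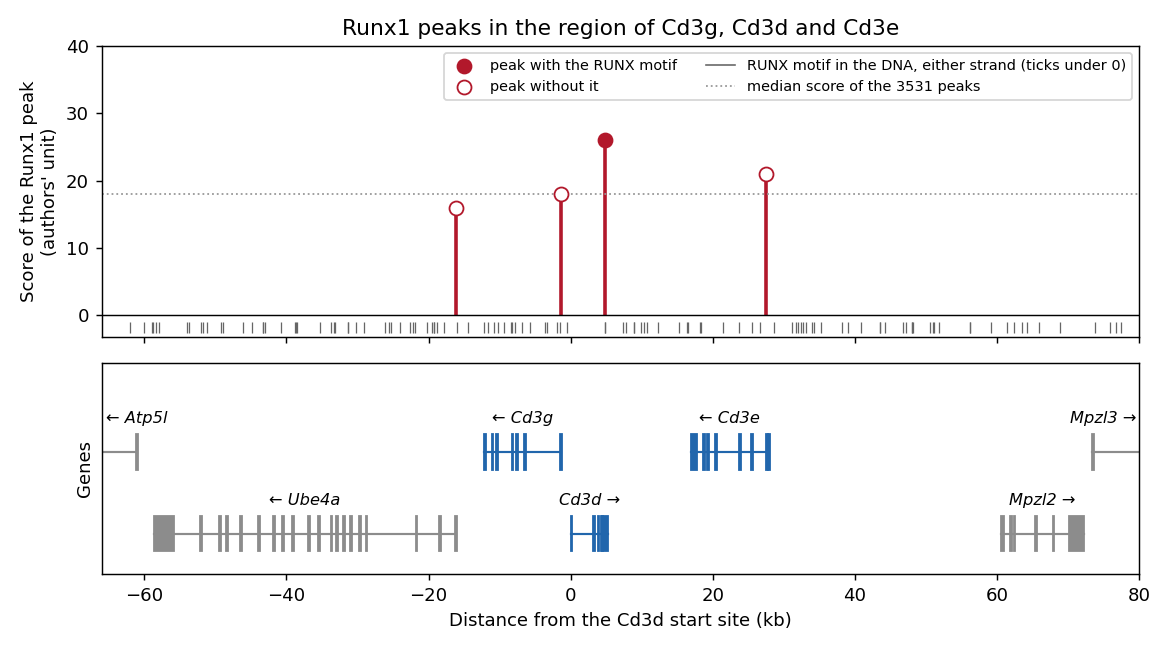
Runx1 peaks from 50 kb downstream of Cd3g to 50 kb upstream of Cd3e, by distance of the centre from the Cd3d start site (kb) and by score in the authors' unit; filled points hold TGTGGT, ticks mark every TGTGGT in the DNA and boxes are exons, with CD3 chain genes in blue. The 4 peaks have scores of 16, 18, 26 and 21 from left to right, and only the one in Cd3d, at 4.82 kb, holds TGTGGT.

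Cd247 (ENSMUSG00000005763.8, chromosome 1, 167718812 to 167807407, plus strand) is 88.6 kb long, and most of it is a first intron of 66279 bp. Its 3 peaks were all in this intron. The first (167733205 to 167733391) scored 18 and was centred 14486 bp downstream of the TSS. The second (167746513 to 167746699) had a score of 16 and lay 27794 bp downstream. The third (167775597 to 167775783) had the highest score, 26, and lay 56878 bp downstream of the TSS and 9607 bp before the second exon.

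In contrast to Cd3g and Cd3e, Cd247 had no peak at its start: the nearest peak centre was 14486 bp away, and the start sites of the shorter non-coding transcripts in its 3′ part were no closer than 12657 bp to a peak. The middle and distal peaks held TGTGGT, 56 and 36 bp from their centres. In the distal one the match extended to TGTGGTT, on the minus strand. In the proximal peak neither form of the motif was found, and the nearest TGTGGT was 418 bp from its centre. Creg1, which encodes a secreted glycoprotein, and Pou2f1, which encodes the transcription factor Oct-1 and overlaps the 3′ end of Cd247 on the other strand, had no peak in their bodies. Their starts were 39421 and 157119 bp from the nearest centre.

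**Figure D2:**
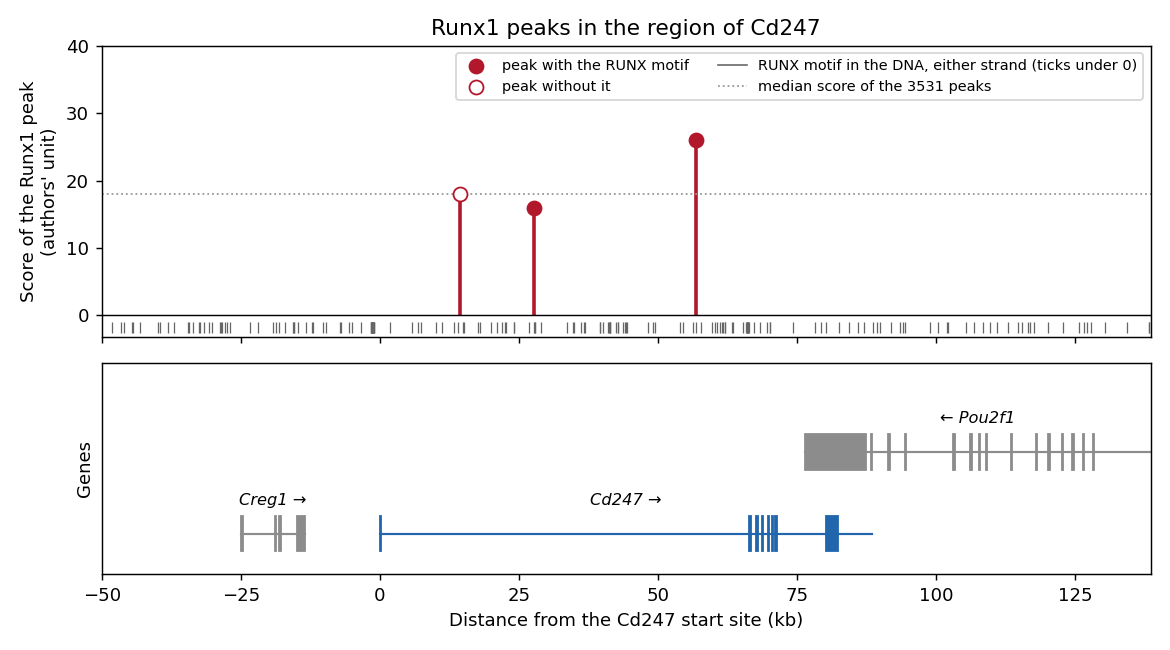
Runx1 peaks from 50 kb upstream to 50 kb downstream of Cd247, by distance of the centre from its start site (kb) and by score in the authors' unit; symbols are as for the region on chromosome 9. All 3 peaks, with scores of 18, 16 and 26, stand between the first and second exons, and none is at the start site.

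The 7 peaks were clear of the 50 kb limit. The farthest from the body nearest to it was the one at Ube4a, 3969 bp from Cd3g. On chromosome 9 the next peaks outward had a score of 16 each, at 64.5 kb from Cd3g (44713095 to 44713281, between genes) and at 143.6 kb from Cd3e (44961185 to 44961371, in an untranslated part of Scn4b). Upstream of Cd247 the next was 78.8 kb away with a score of 23 (167639883 to 167640069), with its centre 1751 bp from the start of Rcsd1, and downstream the next was 746.7 kb away. No input peak had its centre within 50 kb of any of the 4 genes, and the nearest was 5468 kb from Cd247 and 6656 kb from Cd3g. Input peaks were rare: 2.24% of protein-coding genes had one within 50 kb. The 32 bases at the centre of each of the 7 peaks occurred once in the assembly.

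The same rule was then applied to all 22367 protein-coding genes of the annotation. A peak centre within 50 kb of the body was found for all of the 4 CD3 chain genes, against 25.8% of all genes (5780 of 22367). Cd247 had 3 such peaks and the other genes had 4. At least 3 were found for 1.5% of all genes and at least 4 for 0.46%. As Cd3g, Cd3d and Cd3e share their peaks, these counts describe a pair of loci and not 4 separate genes. The members were chosen with earlier results of these data known, so the comparison with all genes is a description and not a test. A centre inside the gene body was found for all of the 4, against 6.49% of all genes, and within 5 kb of the body for all of the 4, against 9.86%. In Cd247 there were 3 centres in the body, as many or more being found in 0.134% of genes. Within 500 bp of the TSS there was a centre for Cd3g and Cd3e, against 2.28% of genes, and within 5 kb for Cd3g, Cd3d and Cd3e, against 4.54%. A long gene such as Cd247 offers more bases to a peak. Among the 2741 genes at least as long, 20.2% had a peak in the body and 0.949% had 3 or more.

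**Figure D3:**
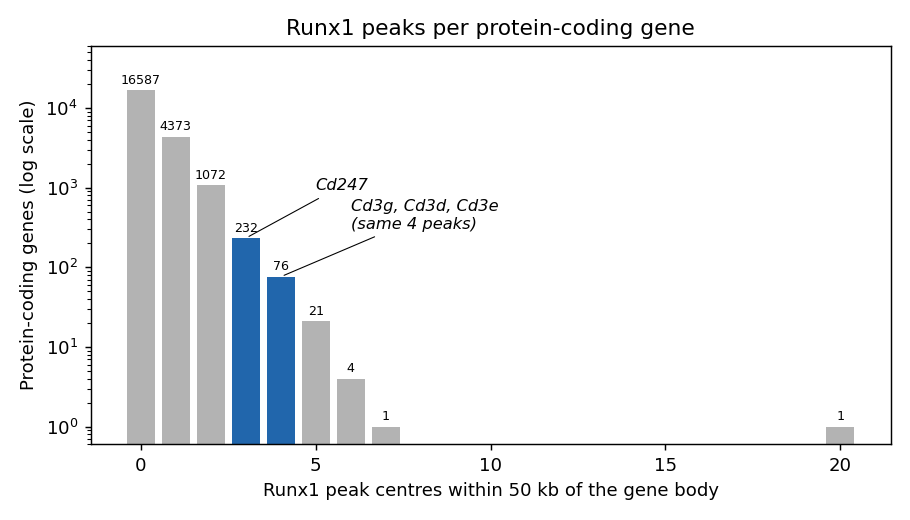
Number of protein-coding genes (log scale) by the number of Runx1 peak centres within 50 kb of the body, with the bars that hold CD3 chain genes in blue. Most genes, 16587 of 22367, have none, Cd247 is among 232 genes with 3, and Cd3g, Cd3d and Cd3e are among 76 genes with 4.

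On chromosome 9 the centres were separated by 14814, 6196 and 22705 bp, and the 4 spanned 43715 bp. In Cd247 the gaps were 13308 and 29084 bp. As the peaks were taken from windows around the genes, these distances are bounded by the rule and are given as positions only. The region of Cd3g, Cd3d and Cd3e (140.0 kb) held 2.86 peaks per 100 kb (exact Poisson 95% interval 0.778 to 7.31) and that of Cd247 (188.6 kb) held 1.59 (0.328 to 4.65), as compared with 0.161 on chromosome 9, 0.139 on chromosome 1 and 0.133 in the genome. These intervals cover counting error only, and the intervals of both regions overlap. The regions were placed around genes chosen with earlier results of these data known. The rates are therefore a description and not a test of enrichment. Those of the chromosomes and the genome are taken over their whole length. The peak at Ube4a is among the 4 counted on chromosome 9.

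The 7 scores lay within the range that holds most of the list. The 3531 scores ran from 14 to 129 and took 35 distinct values, 2 or 3 apart up to 61. Of all peaks, 627 scored above 26, the highest value near a CD3 chain gene. The peaks in the last exon of Cd3d and in the distal part of the Cd247 intron, both at 26, were in the 22.2% of peaks with a score of 26 or more. The Cd3e peak, at 21, was in the upper 38.7%. The peaks at Cd3g and in the proximal part of the Cd247 intron were at the median of 18. The remaining pair, at Ube4a and in the middle of the Cd247 intron, had a score of 16, which 99.5% of peaks reached. A peak with a score of at least 26 was within 50 kb of 6.13% of all protein-coding genes. This cutoff was taken from the members' own highest score, so they reach it by definition. With only the peaks in the upper quartile of scores (23 or more), 1 peak was left in each region, and each of the 4 genes still had a peak within 50 kb, against 7.9% of genes.

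**Figure D4:**
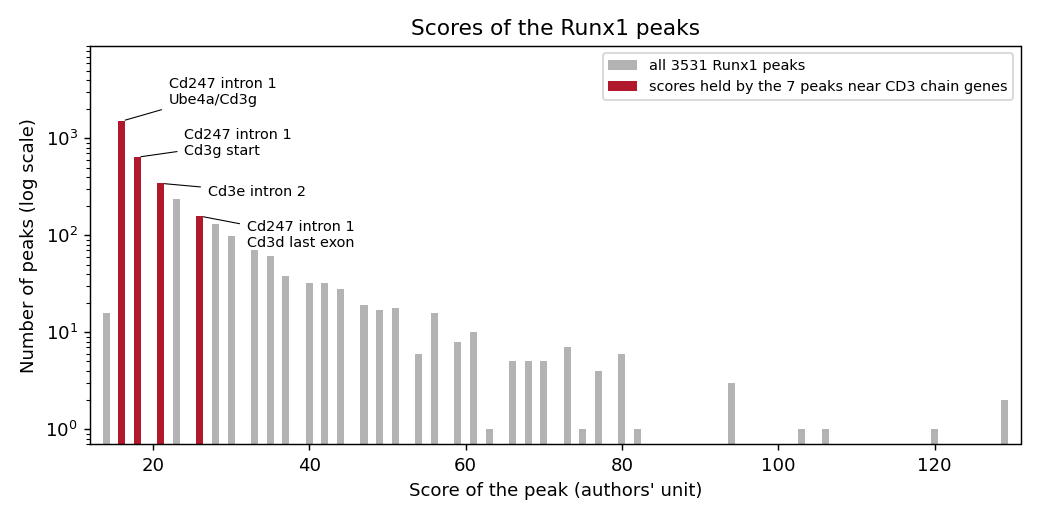
Number of Runx1 peaks (log scale) by score in the authors' unit, with the values held by the 7 peaks near CD3 chain genes in red. All 7 lie at 26 or below, as do all but 627 of the 3531 peaks.

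Taken over the 7 peaks, TGTGGT was found on either strand in 3 and TGCGGT in 1, so that 4 held one form or the other. Among all 3531 peaks the share with TGTGGT was 25.5% (exact Clopper-Pearson 95% confidence interval 24.1 to 27.0%), with TGCGGT 9.4% and with either 32.5%. In windows of the same length 1 kb to each side it was 13.6% for TGTGGT and 1.76% for TGCGGT. The longer TGTGGTT, which contains TGTGGT, was found in 1 of the 7 and in 12.6% of all. Both peaks with a score of 26 held TGTGGT, as did 32.2% of the 785 peaks with that score or more and 23.6% of those below it. With 7 peaks, these counts are a description of the loci and not a share to be compared.
In the peaks near CD3 chain genes, TGTGGT lay 36 to 84 bp from the centre, and the median over the 1086 matches in all peaks was 35.5 bp. The letters are frequent in the DNA around these genes. TGTGGT occurred 117 times in the region of Cd3g, Cd3d and Cd3e and 175 times in that of Cd247, of which 2 in each region were under a peak.
Letters of motifs bound by other T-cell factors were counted in the same way. The ETS core GGAAG was found in 5 of the 7 peaks (59.8% of all peaks), the E-box CAGCTG in 3 (20.0%), the E-box CAGGTG in 2 (25.1%), and the GATA motif AGATAA (5.41%) and the TCF/LEF motif CTTTGA (13.5%) in 0.

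**Figure D5:**
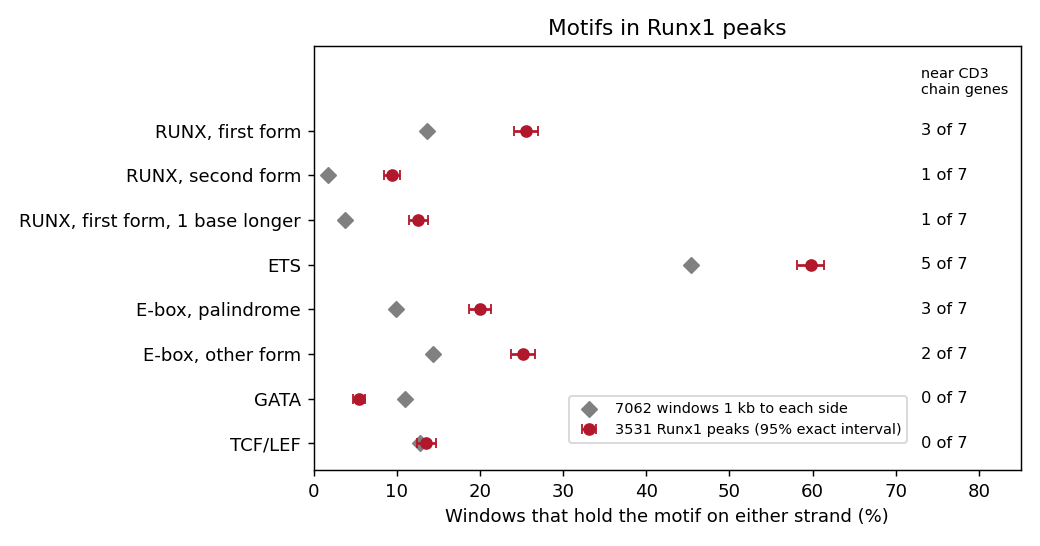
Percent of windows that hold each motif on either strand, for all 3531 Runx1 peaks (circles, with exact 95% intervals) and for windows 1 kb to each side (diamonds), with the count among the 7 peaks near CD3 chain genes at the right. The RUNX forms are TGTGGT (first), TGCGGT (second) and TGTGGTT (1 base longer), and the others are spelled in the text; both RUNX forms are more frequent in the peaks than beside them, and the first is in 3 of the 7.

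Promoters were also read from a RefSeq table (GRCm38.p6) of 300 bases per start, 250 before it and 50 after. Each of the 4 members had 1 promoter there, and all of them matched mm9 exactly and once. Only that of Cd3g was overlapped by a Runx1 peak, over 129 bp. None of the 4 held TGTGGT or TGCGGT, one of which is found in 22.4% of the 32851 promoters of the table. ETS letters GGAAG were found 3 times at Cd3e, 2 times each at Cd3d and Cd247 and not at Cd3g, and 71.4% of all promoters hold them.

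The genes of TCR signalling were counted by lists. Of 37 genes in 4 lists, 34 had an entry under that symbol in the annotation. A peak within 50 kb was found for 24 of these 34, against 25.8% of all genes, for 9 there were at least 3 peaks, against 1.5%, and for 10 there was a peak within 5 kb of the TSS, against 4.54%. Of the 9 with at least 3 peaks, 5 were receptor partners and 4 were kinases or phosphatases, and the other lists held 0. Neighbours on these lists, such as Cd8a and Cd8b1, share peaks, so that these counts too are not of independent genes. The lists were also chosen with earlier results of these data known, so the shares are a description and not a test. Among receptor partners such as the co-receptors, 6 of 7 had a peak within 50 kb, with a median of 4. Among kinases and phosphatases it was 7 of 8, and among adaptors and effectors 10 of 15. Of the 4 genes for ITAM-bearing adaptors of other receptors, Cd79a and Cd79b of the B-cell receptor and Fcer1g and Tyrobp of Fc and natural killer receptors, Cd79b had a peak within 50 kb, and 0 of 4 had one within 5 kb of the TSS. These counts are near the shares of all genes, 25.8% and 4.54%.
Of these lists, 7 genes had a peak within 5 kb of the TSS with a score of 23 or more, as did 1.18% of all protein-coding genes. Lat, the adaptor that ZAP-70 phosphorylates, had a peak with a score of 33 whose centre was 50 bp upstream of the TSS (chromosome 7, 133513014 to 133513200). Lck had one with a score of 23, centred 1704 bp upstream (chromosome 4, 129252496 to 129252682). Csk, the kinase that inhibits Lck, had one with a score of 26 at 2278 bp upstream, and Ptpn6, a phosphatase of the same pathway, had one with a score of 33 at 2419 bp upstream. The others were Sla2, an adaptor that dampens TCR signalling, with a score of 23, and the co-receptor genes Cd4, with 23, and Cd8a, with 42.

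No expression value is given for the CD3 chain genes. The study's FPKM lists for double-negative (DN) and DP thymocytes, which cover genes with a long upstream antisense transcript (LUAT), do not hold these genes in the form used here.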

How the data were processed

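Runx1 ChIP and input were analysed in DP thymocytes, with 1 library each. The authors deposited peaks with a position and 1 score each, and their processing notes name HOMER and mm9. What the score measures is not named, and the aligner is not given in the sources used here. The Runx1 list held 3531 peaks, 3530 of them 187 bp wide, and the input list 740, all 171 bp wide. No read counts are given, so the depth is unknown.

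Positions were made 1-based and compared with NCBIM37 (mm9) and its GENCODE annotation; no peak passed a chromosome end. Gene bodies cover all transcripts of a gene. Motifs were searched as exact letters on both strands of the peak as deposited. The members and lists were chosen with earlier results of these data known, and the ETS, E-box, GATA and TCF/LEF letters were added after the peak positions had been seen. Genes were named if they were members, neighbours within the regions or nearest to a named peak, or, in the lists, if a peak with a score of 23 or more lay within 5 kb of the TSS. Counting was tested on simulated data. Alternatives covered the width, the position of the peak, the score, input, the gene body and the motif. Python 3.11.15, numpy 2.4.6, pandas 2.3.3, scipy 1.17.1, pysam 0.24.0 and matplotlib 3.10.9 were used.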

Additional observations from a re-analysis of the deposited data

How the results depend on the processing

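Of the 41 alternative values computed, 31 stayed within 1.5 times the main count or within the 95% interval of the main share, and 10 moved. With only the peaks in the upper quartile of scores, 1 peak was left in the region of Cd3g, Cd3d and Cd3e and 1 in that of Cd247. The count of members with a peak within 50 kb was 4 under each of the 8 alternatives run for it. Most of these could not change it, as each member body holds a peak centre and none of the 7 peaks overlapped an input peak. Only the alternatives of score and gene body could have lowered the count. The share of protein-coding genes with a peak was 9.86% within 5 kb, 17.7% within 25 kb and 38.5% within 100 kb of the body, and 15.5% with the peaks at or above the median score and 7.9% with the upper quartile. The share of peaks with the RUNX motif was 32.5% with TGCGGT added and 12.6% with TGTGGTT, which 1 of the 7 peaks near CD3 chain genes held. With 1 library per condition, no replicate could be left out. No paired analysis was possible because the ChIP and the input are single libraries. Since the depth is unknown, the absence of a peak, as at the start of Cd247, says only that none was called there.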

Other observations

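The GATA letters AGATAA were less frequent in the Runx1 peaks of the list (5.41%) than in windows of the same length 1 kb to each side (11.0%), whereas the RUNX, ETS and E-box letters were more frequent in the peaks. The peaks had a median GC content of 54.0%, and the 7 near CD3 chain genes had from 54.0 to 61.5%. The base composition of the windows beside the peaks was not measured, and its part in these shares was not tested.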
